A study of Sus scrofa with 12 samples.

Results

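The chaperones that fold proteins in the lumen of the endoplasmic reticulum (ER) were followed in pig (Sus scrofa) blastocysts after vitrification, cooling so fast that water sets as a glass without ice crystals. The set holds 10 genes of the 31781 in the expression table, and all 10 passed the filter on low values that left 9411 genes for testing. They are the lumenal chaperones HSPA5 and HSP90B1, the lectin chaperones CALR and CANX, the HSPA5 partners SDF2L1, DNAJB9, DNAJC3 and HYOU1, and the disulfide isomerases PDIA4 and PDIA6. The genes were chosen by name with their values in these same libraries in view. Their levels and differences are therefore given as a description with no test. Tests are given for other ER genes, though their lists too were drawn up with earlier results of these data known.

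Secreted and membrane proteins enter the ER unfolded, and chaperones hold them until they have folded, gained their sugars and formed their disulfide bonds. When unfolded proteins build up, the sensors IRE1, PERK and ATF6 start the unfolded protein response, which slows translation and raises transcription of these chaperones. In blastocysts, the outer trophectoderm is a secretory and fluid-pumping epithelium that draws on this machinery.

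RNA was measured with Smart-Seq2, which copies and amplifies the RNA of minute inputs, in parthenogenetic blastocysts, which develop from activated eggs without sperm. The 11 libraries analysed are 2 of the group labelled vitrification, 3 of vitrification I, 3 of vitrification II and 3 of a fresh control that was not vitrified. The labels give no further detail of how the 3 vitrified groups differed. The series title names liquid helium without saying which group received it, and no age or stage beyond blastocyst is given. The labels name whole blastocysts as the source while the protocol speaks of sorted single cells, so a library may be an embryo or a cell. Nothing states that the libraries of a group are separate embryos, so p-values here reflect spread among the sequenced libraries alone, part of which may be technical.

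Values are FPKM as deposited by the authors, fragment numbers divided by gene length and by the library's mapped fragments. Counts were not part of the table, so the depth behind each value is unknown. Differences are log2 differences of mean log2(FPKM + 1) ± SE, which understate the change of genes with low values. All 11 trophectoderm markers were above 0 FPKM in every library, with KRT8 between 1097 and 18589 FPKM. Some of them were low, with CDX2 between 1.21 and 4.99, ATP1B1 between 0.723 and 9.43 and ELF3 between 0.480 and 28.0. The granulosa markers HAS2 and PTX3 and the leukocyte marker PTPRC were listed at 0 in every library, while CD68 of the leukocyte and erythroid list stood between 0.0474 and 4.61 FPKM, CD14 between 0 and 1.10 and HBB between 0 and 10.4. The 13 genes of the mitochondrial genome took 38.7 to 51.8% of FPKM in vitrification, 43.8 to 64.3% in vitrification I, 16.9 to 22.1% in vitrification II and 37.6 to 43.9% in fresh control. Fewer cells of a type and less RNA per cell cannot be told apart in these libraries.

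HSPA5 (ENSSSCG00000005601), the ER member of the HSP70 family also called BiP, binds unfolded chains and holds the stress sensors inactive. It stood at 905 and 833 FPKM in vitrification, 946, 1388 and 1117 in vitrification I, 250.2, 387 and 302 in vitrification II, and 121, 500.2 and 983 in fresh control. Vitrification II lay below both other vitrified groups, and fresh control overlapped every other group. HSP90B1 (ENSSSCG00000000849), the ER member of the HSP90 family, completes the folding of a smaller set of clients. It stood at 1377 and 1848 FPKM in vitrification, 1782, 1472 and 2150.2 in vitrification I, 238, 277 and 193 in vitrification II, and 158, 1151 and 1214 in fresh control. Both other vitrified groups lay above every fresh control library, whereas vitrification II lay inside the fresh control range.

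CALR (ENSSSCG00000013746) is calreticulin, a soluble lectin and calcium store that holds glycoproteins until they are folded. Its FPKM was 431 and 478 in vitrification, 2830.2, 1159 and 2568 in vitrification I, 316, 484 and 288 in vitrification II, and 96.0, 278 and 298 in fresh control. Vitrification I stood clear above all other libraries, and vitrification and vitrification II overlapped each other. CANX (ENSSSCG00000014020) is calnexin, the membrane-bound counterpart of CALR. Its FPKM was 253 and 333 in vitrification, 374, 348 and 431 in vitrification I, 156, 161 and 109.7 in vitrification II, and 96.0, 252 and 269.5 in fresh control. The order of group means was the same as for HSPA5, vitrification I lay above both other vitrified groups, and the vitrification II libraries lay inside the fresh control range.

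SDF2L1 (ENSSSCG00000054186) works with HSPA5 and its J-domain partners and keeps unfolded clients soluble. It had 201 and 202 FPKM in vitrification, 125, 149 and 122 in vitrification I, 16.1, 21.9 and 14.1 in vitrification II, and 26.0, 209 and 261 in fresh control. All 3 vitrification II libraries lay below all other libraries. DNAJB9 (ENSSSCG00000016653), a J-domain co-chaperone that brings HSPA5 to the sensor IRE1, had 75.5 and 173 FPKM in vitrification, 173, 236 and 451 in vitrification I, 33.1, 26.9 and 38.6 in vitrification II, and 47.4, 89.5 and 169.5 in fresh control. DNAJC3 (ENSSSCG00000026082), a J-domain protein that hands clients to HSPA5, had 39.9 and 54.0 FPKM in vitrification, 63.7, 54.1 and 171 in vitrification I, 9.89, 9.56 and 9.94 in vitrification II, and 10.1, 37.7 and 42.0 in fresh control. For both J-domain genes vitrification II was lowest without overlap, and vitrification I replicate 3 was highest of all libraries.

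HYOU1 (ENSSSCG00000015106) is a large HSP70 relative that exchanges the nucleotide of HSPA5 and was the least abundant member per length. It had 20.5 and 41.9 FPKM in vitrification, 8.87, 9.87 and 8.82 in vitrification I, 16.0, 6.02 and 5.73 in vitrification II, and 1.81, 3.60 and 7.98 in fresh control. Both vitrification libraries lay above all other libraries, which held for no other member, and HYOU1 was the one member whose vitrification II and vitrification I libraries overlapped.

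PDIA4 (ENSSSCG00000015453) and PDIA6 (ENSSSCG00000008633) are disulfide isomerases that form and rearrange disulfide bonds. PDIA4 had 143 and 194 FPKM in vitrification, 114, 154 and 169 in vitrification I, 87.2, 78.2 and 47.6 in vitrification II, and 30.8, 178 and 269.98 in fresh control. PDIA6 had 349 and 276 FPKM in vitrification, 213, 265 and 272 in vitrification I, 140.5, 120.5 and 69.9 in vitrification II, and 66.4, 399 and 457 in fresh control. For both genes the highest and the lowest library belonged to fresh control, and vitrification II lay below the other vitrified groups.

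**Figure D1:**
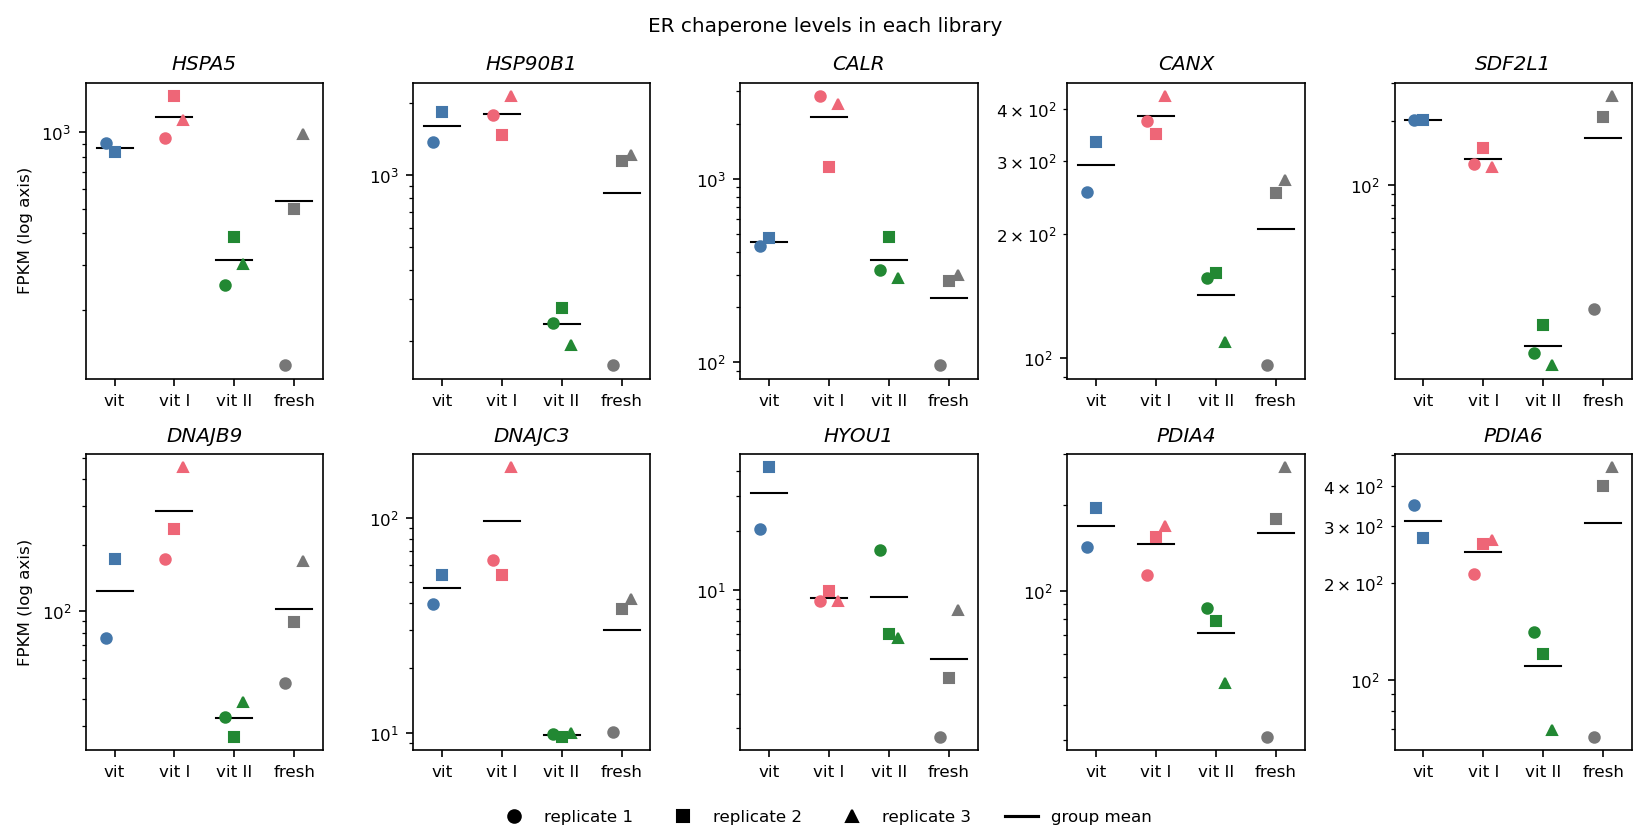
FPKM (log axis) of each of the 10 chaperones in the 11 libraries, by group, with vit for vitrification and fresh for fresh control; symbols give the replicate number and the bar the group mean. For 9 of 10 genes every vitrification II library lies below every vitrification I library, and fresh control 1 is the lowest fresh library in all 10 panels.

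Summed over the 10 genes, FPKM was 3794 and 4434 in vitrification, 6630.2, 5235 and 7460.4 in vitrification I, 1264, 1572 and 1078 in vitrification II, and 654, 3098 and 3972 in fresh control. Vitrification I held the 3 highest sums, and fresh control 1 the lowest. The make-up of the sum differed between groups as well. CALR made up 11.1 ± 0.408% of it in vitrification (SD, n = 2), 33.1 ± 10.3% in vitrification I, 27.5 ± 2.97% in vitrification II and 10.4 ± 3.80% in fresh control (SD, n = 3 each). HSP90B1 made up 39.0 ± 3.81% in vitrification, 27.9 ± 0.984% in vitrification I, 18.1 ± 0.647% in vitrification II and 30.6 ± 6.47% in fresh control. SDF2L1 made up 4.93 ± 0.518% in vitrification, 2.12 ± 0.639% in vitrification I, 1.33 ± 0.0595% in vitrification II and 5.77 ± 1.55% in fresh control.

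**Figure D2:**
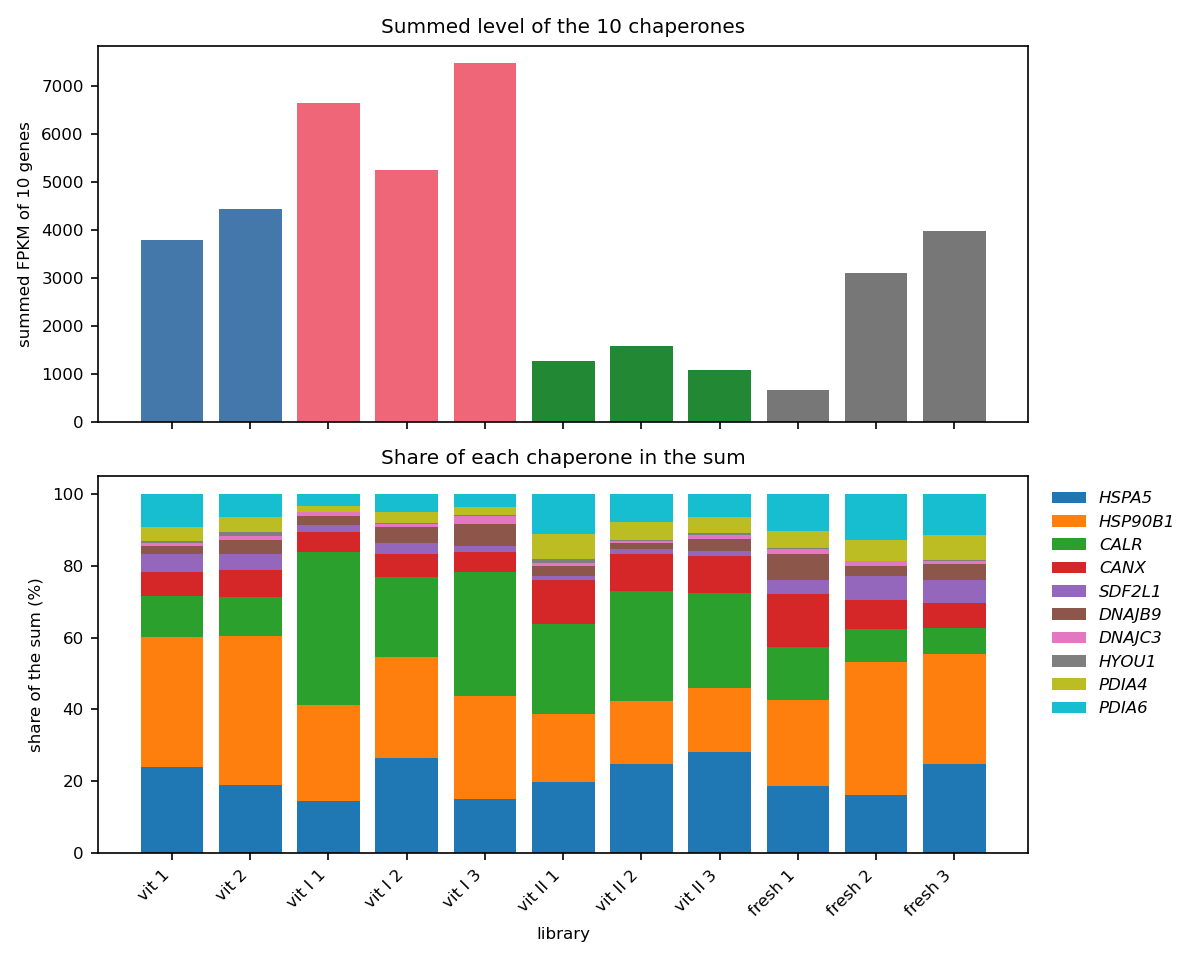
Summed FPKM of the 10 chaperones in each library (top) and the share of each gene in that sum in percent (bottom), libraries grouped as vitrification (vit), vitrification I, vitrification II and fresh control (fresh). The sums run from 654 in fresh control 1 to 7460.4 in vitrification I replicate 3, and the CALR share is widest in vitrification I and vitrification II.

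Ratios of FPKM within a library do not depend on how libraries are scaled to each other. The lectins CALR and CANX, which share the sugar-binding cycle, had a ratio of 1.70 and 1.43 in vitrification, 7.57, 3.33 and 5.96 in vitrification I, 2.02, 3.01 and 2.62 in vitrification II, and 1.00, 1.10 and 1.10 in fresh control. The 4 groups did not overlap in this ratio, which was nearly constant in fresh control although fresh control 1 was low for both genes. How many other gene pairs separate the groups as well was not counted. Groups overlapped in CALR over HSP90B1, at 0.788 to 1.59 in vitrification I and 1.33 to 1.75 in vitrification II, and in DNAJB9 over HSPA5. HSPA5 over its partner SDF2L1 was 4.50 and 4.12 in vitrification, 7.59, 9.34 and 9.19 in vitrification I, 15.5, 17.7 and 21.4 in vitrification II, and 4.64, 2.39 and 3.76 in fresh control. HSP90B1 over HSPA5 was 1.52 and 2.22 in vitrification, 1.88, 1.06 and 1.92 in vitrification I, 0.953, 0.716 and 0.639 in vitrification II, and 1.31, 2.30 and 1.23 in fresh control. Vitrification II was the group in which HSPA5 exceeded HSP90B1 in every library.

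Fresh control 1 stood apart from fresh control 2 and 3 in these genes. It was below both of them for 10 of 10 members, where 27.0% of the 9411 genes tested were, and 5281 of those genes were above both. The smaller of its shortfalls ran from 1.89-fold for DNAJB9, against fresh control 2, and the larger reached 10.0-fold for SDF2L1, against fresh control 3. The median log2 difference of fresh control 1 from the mean of the other fresh libraries was -2.20 over the members and 0.23 over all genes. Other ER genes had smaller negative medians. They were -0.50 for ER folding factors, -0.24 for ER-associated degradation and disulfide oxidation and -0.57 for regulators of the unfolded protein response. In the degradation and oxidation list 11 of 21 genes were below both and 9 above both. A negative median was not confined to ER genes, since the trophectoderm markers had -0.65, with 8 of 11 below both and 3 above both. Cytosolic and mitochondrial chaperones had a median of 0.28, with 4 of 27 below both. Each comparison with fresh control is therefore given with and without that library, and the reason for its low values was not tested.

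**Figure D3:**
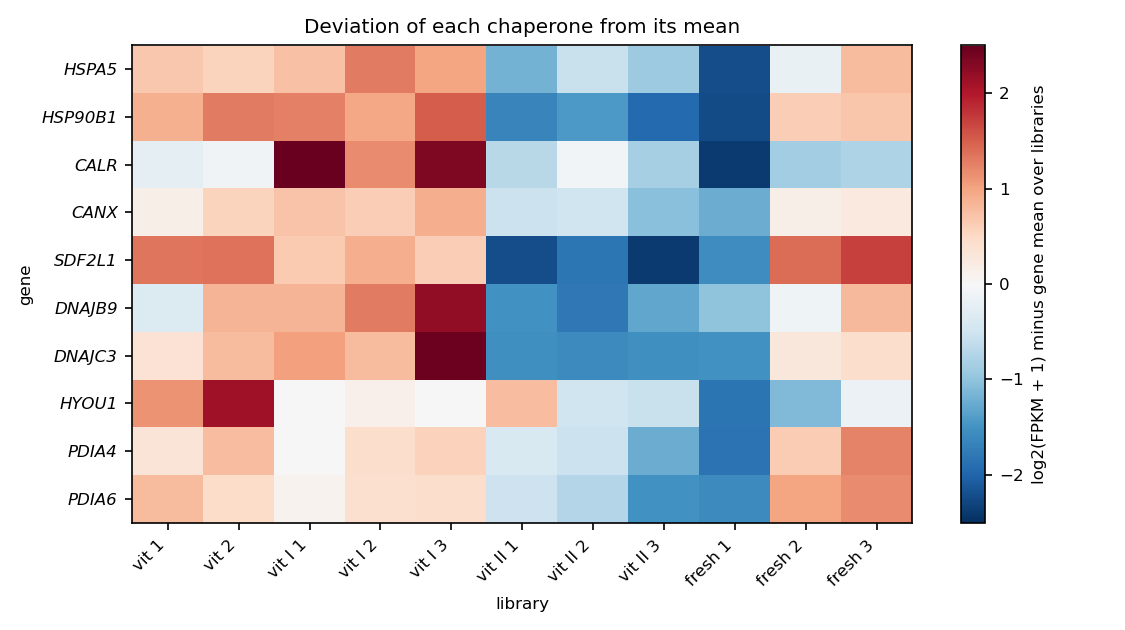
Deviation of each chaperone (rows) in each library (columns) from its mean log2(FPKM + 1) over the 11 libraries. Vit stands for vitrification and fresh for fresh control, and the colour scale takes in all values. The 3 vitrification II columns and fresh control 1 are below the gene mean for nearly all members, and HYOU1 in vitrification II replicate 1 is above it.

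In the group labelled vitrification with no numeral, set against fresh control, all 10 members had a positive log2 difference, with a median of 0.84 where the median of all genes was 0.19. HYOU1 differed most, averaging 31.2 ± 15.1 FPKM in vitrification (SD, n = 2) and 4.46 ± 3.18 in fresh control (SD, n = 3), a log2 difference of 2.64 ± 0.53. HSP90B1 followed with 1.40 ± 0.65 and CALR with 1.18 ± 0.51. These 3 genes were higher in every vitrification library than in every fresh control library, where 25.5% of all genes were, and 0 members were lower without overlap, where 11.5% of all genes were. Without fresh control 1, the median was 0.19, below the 0.29 of all genes, and 4 members turned negative, with PDIA6 at -0.46 ± 0.40. The same 3 members were then higher without overlap (40.8% of all genes) and SDF2L1 and PDIA6 were lower (16.5%). The HYOU1 difference was 2.24 ± 0.53 without that library, and the median was 1.31 without fresh control 3.

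Vitrification I set against fresh control again gave 10 positive differences, with a member median of 1.30 where all genes had -0.06. CALR differed most, averaging 2186 ± 899 FPKM in vitrification I, against 224 ± 111 in fresh control (SD, n = 3 each), a log2 difference of 3.34 ± 0.46. The J-domain genes DNAJC3, at 1.69 ± 0.51, and DNAJB9, at 1.55 ± 0.48, came next, together with HSP90B1 at 1.55 ± 0.58 and HSPA5 at 1.54 ± 0.55. SDF2L1, PDIA4 and PDIA6 had differences of 0.21 ± 0.62, 0.32 ± 0.59 and 0.11 ± 0.56, each smaller than its SE. HSP90B1, CALR, CANX, DNAJB9, DNAJC3 and HYOU1 were higher without overlap, 6 of 10 members where 17.3% of all genes were, and 0 members were lower, where 18.9% of all genes were. Without fresh control 1 the member median was 0.63 and CALR stood at 2.82 ± 0.41. The same 6 genes then lay above fresh control without overlap (26.1% of all genes), whereas SDF2L1, PDIA4 and PDIA6 lay below it (23.8%). With limma's array weights, which give less weight to libraries far from their group, the median was 0.51. Summed FPKM of the trophectoderm markers was 2484 to 5717 in vitrification I and 10393 to 15486 in fresh control, a sum carried by KRT8 and KRT18. The transcription factor TFAP2A of the same list averaged 123 ± 28.9 FPKM in vitrification I, against 9.76 ± 3.73 in fresh control (SD, n = 3 each), and the median log2(FPKM + 1) of the 11 markers was 4.44 ± 0.58 in vitrification I and 4.65 ± 0.68 in fresh control. The part of the markers in these differences was not tested.

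Vitrification II set against fresh control divided the members. The median of all genes was itself shifted by 0.62, and against that the member median was -0.92, or -1.54 relative to it. SDF2L1 differed most, averaging 17.4 ± 4.03 FPKM in vitrification II and 165 ± 124 in fresh control (SD, n = 3 each), a log2 difference of -2.66 ± 0.62. DNAJB9 at -1.44 ± 0.48, HSP90B1 at -1.37 ± 0.58 and DNAJC3 at -1.29 ± 0.51 were the next most negative. CALR at 0.82 ± 0.46 and HYOU1 at 0.93 ± 0.48 were the members with a positive difference, and the HYOU1 value was 0.07 after quantile normalization. SDF2L1, DNAJB9 and DNAJC3 were lower without overlap, 3 of 10 members where 3.41% of all genes were, and 0 members were higher, where 44.0% of all genes were.

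The member median of vitrification II was further from fresh control when fresh control 1 was left out. It was -1.77 without that library, against -0.38 without fresh control 3, and HSP90B1 stood at -2.33 ± 0.34 and SDF2L1 at -3.70 ± 0.34. All members except CALR and HYOU1 were then lower without overlap, 8 of 10 where 6.94% of all genes were, and 0 were higher (60.2% of all genes). The median absolute log2 difference of the members between fresh control 1 and single vitrification II libraries was 0.449 to 0.870, against 1.92 to fresh control 2 and 2.36 to fresh control 3. Over all genes, fresh control 1 was nearer to the other fresh libraries, at 0.522 and 0.469, than to vitrification II, at 0.643 to 0.680. Its distance was 0.550 and 0.711 to vitrification and 0.573 to 0.897 to vitrification I. Fresh control 2 and 3 were closer to each other, at 0.244. From them, vitrification replicate 1 was at 0.469 and 0.456 and vitrification replicate 2 at 0.734 and 0.670.

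The means compared between vitrification II and vitrification I come from vitrified libraries, while the SEs come from the fit over all 11 libraries, fresh control 1 included. All 10 members had a negative difference, with a median of -2.20 where all genes had 0.68. DNAJB9 at -2.98 ± 0.48 averaged 32.9 ± 5.86 FPKM in vitrification II and 287 ± 145 in vitrification I (SD, n = 3 each). DNAJC3 at -2.98 ± 0.51, HSP90B1 at -2.92 ± 0.58, SDF2L1 at -2.87 ± 0.62 and CALR at -2.52 ± 0.46 were of similar size. PDIA6 at -1.23 ± 0.56 and PDIA4 at -1.05 ± 0.59 differed less, and HYOU1 at -0.13 ± 0.48 differed by less than its SE. Every member but HYOU1 was lower without overlap, 9 of 10 where 7.07% of all genes were, while 0 members were higher, where 42.6% of all genes were. The mitochondrial share of FPKM also differed between these groups, as did some lineage markers. KRT8 averaged 14620 ± 4013 FPKM in vitrification II and 2075 ± 1186 in vitrification I (SD, n = 3 each), and in vitrification II it carried most of the trophectoderm sum. That sum was 13795 to 22177 FPKM in vitrification II and 2484 to 5717 in vitrification I. TFAP2A averaged 90.5 ± 41.1 and GATA3 38.8 ± 13.9 FPKM in vitrification II, against 123 ± 28.9 and 45.5 ± 22.5 in vitrification I. LIN28A, listed with the inner cell mass, averaged 50.6 ± 28.9 FPKM in vitrification II and 0.83 ± 0.723 in vitrification I. The summed FPKM of the inner cell mass list, LIN28A included, was 73.4 ± 29.0 in vitrification II and 19.4 ± 3.71 in vitrification I. LIN28A carried most of that sum in vitrification II and little of it in vitrification I. Over all libraries GATA6 of that list stood between 10.2 and 39.9 FPKM and NANOG between 0 and 7.97. Of the 6 genes on that list 3 were analysed, and POU5F1, SOX2 and SOX17 were not. After rescaling to the FPKM outside the mitochondrial genome the median was -2.84, and after quantile normalization -2.75, with all 10 members negative in both. The part of the marker differences was not tested. The comparisons with fresh control share its libraries, and the last one shares libraries with both, so they are not independent of each other.

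**Figure D4:**
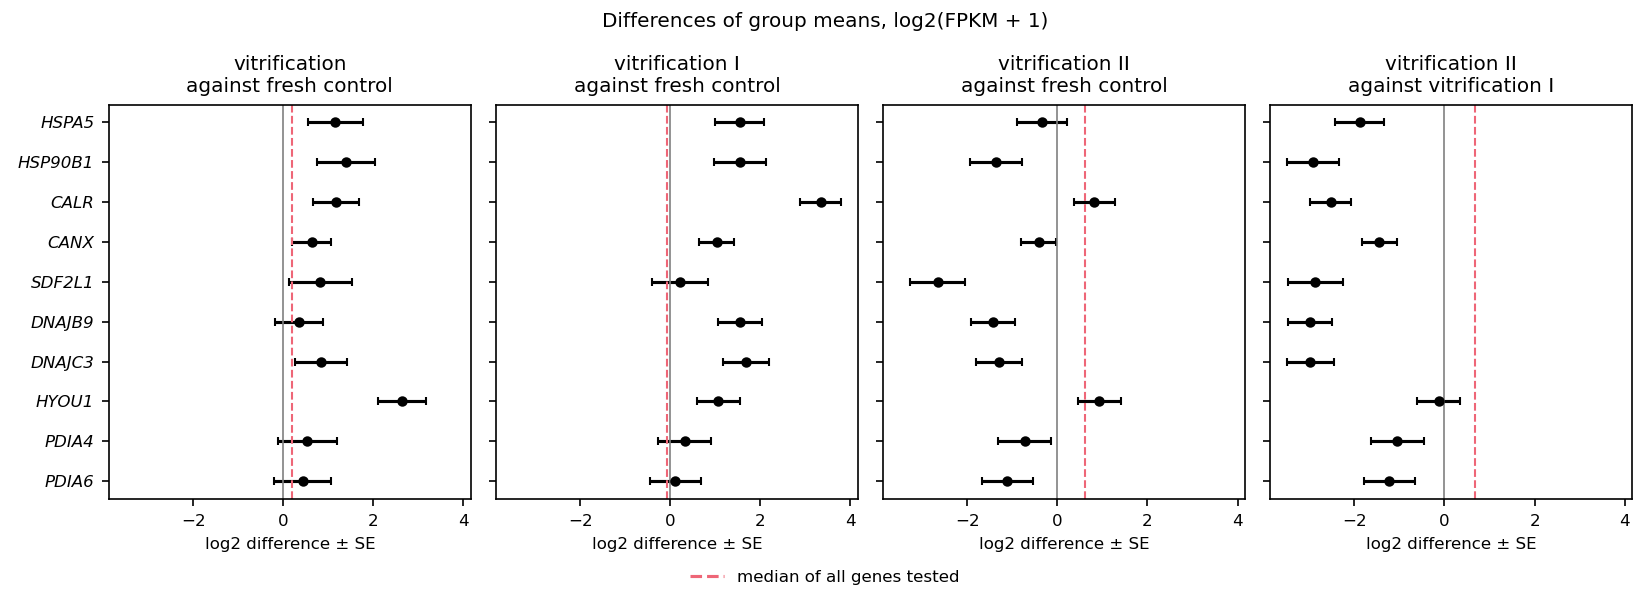
Log2 difference of group means ± SE for each chaperone in 4 comparisons, on log2(FPKM + 1), with the median of all 9411 genes as a dashed line. In vitrification II against vitrification I all 10 points lie left of the dashed line, from -2.98 for DNAJB9 to -0.13 for HYOU1.

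Other ER genes, in lists drawn up with earlier results of these data known, were tested with limma with Benjamini-Hochberg adjustment over all 9411 genes. The 76 genes tested were 39 folding factors, 21 of ER-associated degradation and disulfide oxidation and 16 regulators of the unfolded protein response. In vitrification against fresh control, 3 of the 76 were called higher and 0 lower, where 1.25% of all genes were called higher and 0.117% lower. An unadjusted limma p under 0.05 was found for 21 of the 76, where it was found for 1709 of all 9411 genes. EDEM1, a lectin that sends misfolded glycoproteins to degradation, rose by 2.75 ± 0.47 (limma adjusted p = 0.0174). TXNDC5, a thioredoxin-domain isomerase, rose by 2.29 ± 0.39 (limma adjusted p = 0.0174). EDEM3, a mannosidase of the same degradation route, rose by 2.25 ± 0.47 (limma adjusted p = 0.0335). None of the 3 calls held without vitrification replicate 2 or without fresh control 2. Over all alternatives the limma adjusted p ran from 0.0128 to 0.305 for EDEM1, from 0.00555 to 0.248 for TXNDC5 and from 0.0139 to 0.448 for EDEM3, each highest without vitrification replicate 2. Without fresh control 2 it was 0.0761, 0.0761 and 0.126. The EDEM3 call was also lost without fresh control 1 (0.0574), fresh control 3 (0.0977) or vitrification II replicate 2 (0.0521).

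In vitrification I against fresh control, 19 of the 76 were called higher and 3 lower, where 8.85% of all genes were called higher and 9.77% lower. Degradation and oxidation genes made up 9 of the higher calls among 21 tested. ERO1B, an oxidase that recharges the disulfide isomerases, had 19.2, 12.6 and 19.0 FPKM in vitrification I, against 1.77, 1.16 and 1.32 in fresh control, and rose by 2.88 ± 0.36 (limma adjusted p = 0.000323). EDEM3 rose by 3.01 ± 0.42 (limma adjusted p = 0.000542) and EDEM1 by 2.31 ± 0.42 (limma adjusted p = 0.00239). ERO1A, the related oxidase, rose by 2.03 ± 0.48 (limma adjusted p = 0.00994). Folding factors gave 8 higher calls and 1 lower call among 39. SEC63, the J-domain protein of the import channel, rose by 2.23 ± 0.41, the proline isomerase FKBP14 by 2.13 ± 0.37, DNAJC10, a J-domain reductase, by 1.96 ± 0.49 and the membrane oxidoreductase TMX3 by 1.91 ± 0.42 (limma adjusted p = 0.00269, 0.00173, 0.0135 and 0.00744). The call of DNAJC10 was lost without vitrification I replicate 3 (0.0566) or fresh control 2 (0.0699), with a range of 0.00667 to 0.0857 over alternatives. Without fresh control 2, 12 of the 76 genes were called in place of 22, and without fresh control 1 the split was 16 higher and 8 lower. The shares of all genes called hold for the fit with all libraries alone.

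The 16 regulators gave 2 higher and 2 lower calls in vitrification I. PPP1R15A, the stress-induced phosphatase subunit that restores translation, had 0.324, 2.40 and 0.951 FPKM in vitrification I, against 18.9, 5.90 and 6.84 in fresh control, and fell by 2.31 on the log2 scale (SE 0.53, limma adjusted p = 0.00923). XBP1, the transcription factor spliced by IRE1, fell by 1.32 (SE 0.41, limma adjusted p = 0.0353). EIF2AK3, which encodes the sensor PERK, rose by 1.61 ± 0.44 (limma adjusted p = 0.0193) and PPP1R15B, the constitutive phosphatase subunit, by 1.42 ± 0.41 (limma adjusted p = 0.0274). The call of XBP1 was lost after rescaling outside the mitochondrial genome (0.159), after quantile normalization (0.0961) and without vitrification I replicate 1 (0.157), fresh control 2 (0.17) or fresh control 3 (0.0729), with a range of 0.00416 to 0.17 over alternatives. The call of EIF2AK3 was lost without vitrification I replicate 3 (0.0794), fresh control 2 (0.0684) or fresh control 3 (0.051), with a range of 0.00853 to 0.117. That of PPP1R15B was lost without vitrification I replicate 1 (0.0836) or 3 (0.0605) and without fresh control 1 (0.0714) or 2 (0.102), with a range of 0.0141 to 0.102. ATF4 and DDIT3, transcription factors downstream of PERK, had differences of -0.61 ± 0.56 and -0.65 ± 0.55 (limma adjusted p = 0.473 and 0.443).

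For vitrification II against fresh control, 14 of the 76 were called higher and 5 lower, where 24.6% of all genes were called higher and 1.09% lower. The split depended on scaling, with 4 higher and 7 lower after rescaling outside the mitochondrial genome, 0 higher and 9 lower after quantile normalization, and 10 higher and 13 lower without fresh control 1. The median difference of all genes was 0.50, -0.03 and 0.73 in these settings. The shares of all genes called hold for the main fit alone. The total of 19 was 7, 10 and 6 without vitrification II replicate 1, 2 and 3, and 5 and 8 without fresh control 2 and 3. PDIA3, the isomerase that pairs with CALR and CANX, had 405, 465 and 322 FPKM in vitrification II and 458, 2159.6 and 2117 in fresh control. It fell by 1.70 on the log2 scale (SE 0.48, limma adjusted p = 0.0183), a call lost without vitrification II replicate 3 (0.0643), fresh control 2 (0.103) or fresh control 3 (0.0909), with a range of 4.75e-05 to 0.119 over alternatives. DERL3, a channel component of the degradation route, fell by 1.68 (SE 0.50, limma adjusted p = 0.0239), a call lost without vitrification II replicate 1 (0.0934), fresh control 2 (0.109) or fresh control 3 (0.118), with a range of 0.000124 to 0.118. SELENOS, its selenoprotein partner, fell by 1.46 (SE 0.44, limma adjusted p = 0.0259), and this call was lost without vitrification II replicate 2 (0.0519) or 3 (0.0906) and without fresh control 2 (0.0731) or 3 (0.138), with a range of 0.000254 to 0.138. CRELD2, an ER protein induced by stress, fell by 1.99 (SE 0.67, limma adjusted p = 0.0403), but the call held in 9 of 20 alternatives. It was lost without vitrification replicate 1 (0.0555) or 2 (0.0552), without vitrification II replicate 1 (0.0542), 2 (0.0644) or 3 (0.141), and without fresh control 2 (0.171) or 3 (0.176), with a range of 0.000115 to 0.216. Among the regulators 4 were called higher and 0 lower. PPP1R15A, at 24.2, 62.9 and 76.3 FPKM in vitrification II, rose by 2.28 ± 0.53 (limma adjusted p = 0.00776), a call lost after quantile normalization (0.0882) and with no filter (0.0622), with a range of 7.24e-05 to 0.0882.

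The remaining named calls of vitrification II against fresh control were higher, and each was lost after quantile normalization, where its adjusted p was the highest of all alternatives. TMX3 rose by 2.25 ± 0.42 (limma adjusted p = 0.0024, range 2.85e-05 to 0.0503). HSPA13, a microsomal HSP70 relative, rose by 2.06 ± 0.58 (limma adjusted p = 0.0192, range 0.00841 to 0.25), and EDEM3 by 1.64 ± 0.42 (limma adjusted p = 0.0125, range 0.000626 to 0.311). OS9, a lectin that delivers glycoproteins for degradation, rose by 1.38 ± 0.42 (limma adjusted p = 0.0278, range 0.0113 to 0.378). SESN2, a stress-induced regulator, rose by 1.70 ± 0.48 (limma adjusted p = 0.019, range 0.00546 to 0.328). PPP1R15B rose by 1.68 ± 0.41 (limma adjusted p = 0.0103, range 0.00478 to 0.217) and the sensor ATF6 by 1.18 ± 0.37 (limma adjusted p = 0.0295, range 0.00246 to 0.562). Rescaling outside the mitochondrial genome also ended the calls of HSPA13 (0.0548), EDEM3 (0.0555), OS9 (0.0686) and ATF6 (0.0976). Those of TMX3, SESN2 and PPP1R15B held after that rescaling. Leaving out single libraries ended some of the named calls too. HSPA13 was lost without vitrification II replicate 1 (0.0518) or 3 (0.0834) or fresh control 2 (0.0867), EDEM3 without vitrification II replicate 1 (0.0505) and PPP1R15B without fresh control 2 (0.0516). OS9 was lost without vitrification II replicate 1 (0.0792), 2 (0.0681) or 3 (0.0597) or fresh control 1 (0.087). SESN2 was lost without vitrification II replicate 1 (0.088) or 2 (0.0611) or fresh control 1 (0.0541), and ATF6 without vitrification II replicate 2 (0.0558) or 3 (0.123), fresh control 2 (0.121) or fresh control 3 (0.0786). XBP1 had a difference of -0.89 ± 0.41 (limma adjusted p = 0.117) and MANF, a secreted ER protein, -1.15 ± 0.57 (limma adjusted p = 0.147).

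For vitrification II against vitrification I, 24 of the 76 were called lower and 11 higher, where 3.75% of all genes were called lower and 34.7% higher. The count of lower calls was 30 after rescaling outside the mitochondrial genome and 36 after quantile normalization, each with 4 higher. The median difference of all genes was 0.21 and -0.04 in these settings. The shares of all genes called hold for the main fit alone. Folding factors gave 14 lower and 5 higher calls. CRELD2 fell by 2.59 (SE 0.67, limma adjusted p = 0.00748), DNAJB11, a J-domain partner of HSPA5, by 2.54 (SE 0.49, limma adjusted p = 0.0012) and PDIA3 by 2.35 (SE 0.48, limma adjusted p = 0.0017). SEC63 fell by 2.54 (SE 0.41, limma adjusted p = 0.000389) and MANF by 1.98 (SE 0.57, limma adjusted p = 0.0136). Degradation and oxidation genes gave 10 lower and 3 higher calls. ERO1B, at 0.426, 0.518 and 0.527 FPKM in vitrification II, fell by 3.57 (SE 0.36, limma adjusted p = 2.5e-05) and DERL3 by 3.47 (SE 0.50, limma adjusted p = 0.000178). SELENOS fell by 2.18 (SE 0.44, limma adjusted p = 0.00169), and HERPUD1, a membrane protein of the degradation complex, by 2.04 (SE 0.45, limma adjusted p = 0.00298). Of the 16 regulators 3 were called higher and 0 lower, a smaller share than that of all genes called higher, and their median of 0.62 was near the 0.68 of all genes. PPP1R15A rose by 4.60 ± 0.53 (limma adjusted p = 4.35e-05), ATF6B, a relative of ATF6, by 1.82 ± 0.35 (limma adjusted p = 0.00127) and SESN2 by 1.67 ± 0.48 (limma adjusted p = 0.0135). The call of SESN2 was lost after rescaling outside the mitochondrial genome (0.0904), after quantile normalization (0.194) and without vitrification I replicate 3 (0.055) or vitrification II replicate 1 (0.0716), with a range of 0.00341 to 0.194.

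**Figure D5:**
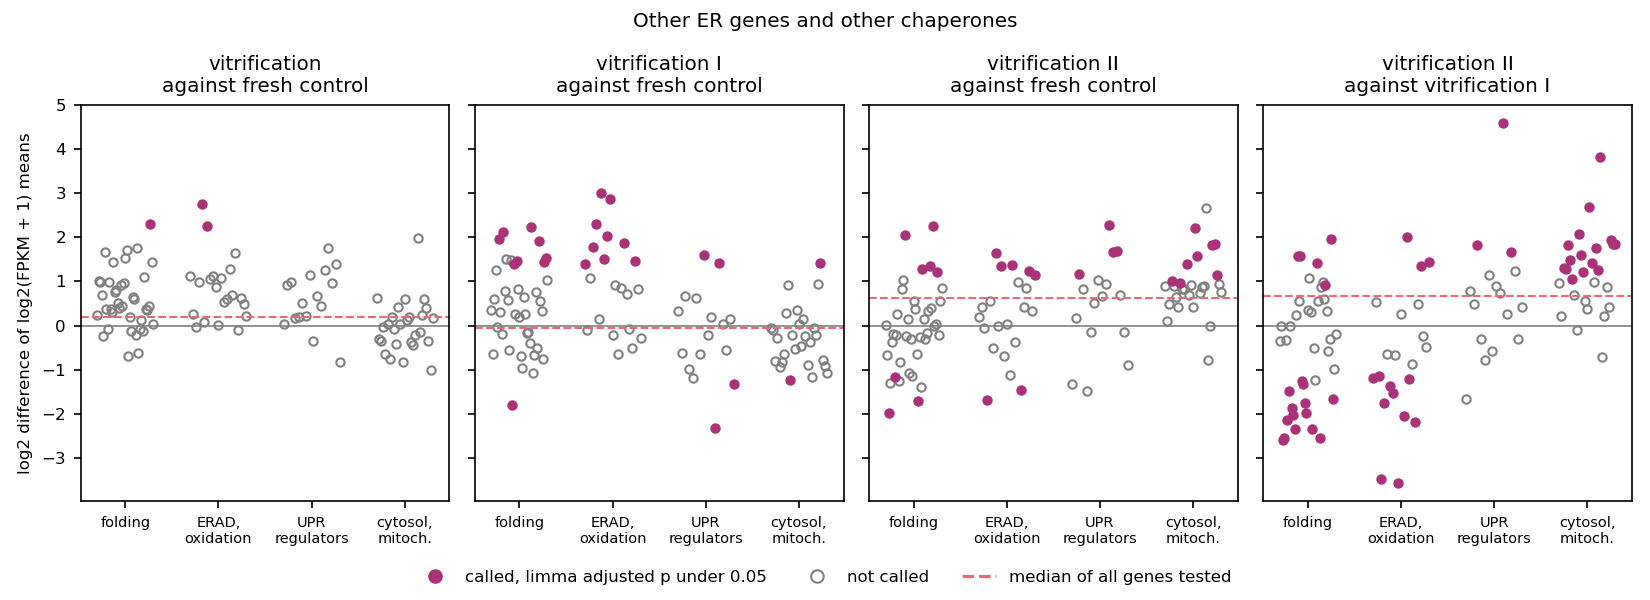
Log2 difference of group means for single genes of 4 lists (ER folding factors; ER-associated degradation (ERAD) and disulfide oxidation; unfolded protein response (UPR) regulators; cytosolic and mitochondrial chaperones) in 4 comparisons; filled points are called by limma and the dashed line is the median of all genes. In vitrification II against vitrification I the folding and degradation lists hold 24 lower calls, and the cytosolic and mitochondrial list holds 16 higher and 0 lower calls, where 34.7% of all genes were called higher and 3.75% lower.

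Of the 27 chaperones of the cytosol and mitochondria tested, 0 were called in vitrification against fresh control by limma (1.25% of all genes were called higher and 0.117% lower), with 0 calls under each alternative. An unadjusted limma p under 0.05 was found for 1 of the 27, where it was found for 1709 of all 9411 genes. In vitrification I against fresh control, 1 gene was called higher and 1 lower, where 8.85% of all genes were called higher and 9.77% lower. PTGES3, a co-chaperone of HSP90, rose by 1.43 ± 0.31 (limma adjusted p = 0.00726), and the call of the mitochondrial J-domain protein DNAJA3, which fell by 1.23 (SE 0.39, limma adjusted p = 0.0375), held in 10 of 20 alternatives, with a range of 0.00687 to 0.18. It was lost without vitrification I replicate 1 (0.123) or 3 (0.0688) and without fresh control 1 (0.0964), 2 (0.0622) or 3 (0.104), and the count of called genes was 8 without vitrification I replicate 2. In vitrification II against fresh control, 8 were called higher and 0 lower, where 24.6% of all genes were called higher and 1.09% lower, and 5, 4, 4 and 5 were called without vitrification II replicate 1, vitrification II replicate 3, fresh control 2 and fresh control 3. HSPA14, a ribosome-associated HSP70 relative, rose by 2.22 ± 0.48 (limma adjusted p = 0.005), a call lost after quantile normalization (0.0563, range 6.18e-05 to 0.0563), and PTGES3 by 1.85 ± 0.31 (limma adjusted p = 0.0013). The nucleotide exchange factors HSPH1 and HSPA4 rose by 1.82 ± 0.35 and 1.57 ± 0.35 (limma adjusted p = 0.00256 and 0.00614).

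Set against vitrification I, vitrification II had 16 of the 27 called higher and 0 lower, where 34.7% of all genes were called higher and 3.75% lower. After rescaling outside the mitochondrial genome 7 were called higher and 1 lower. The median difference of all genes was then 0.21, against 0.68 in the main fit, to which the shares belong. HSPB1, a small heat shock protein, rose by 3.83 ± 0.97 (limma adjusted p = 0.00686), HSPA14 by 2.69 ± 0.48 (limma adjusted p = 0.000697), DNAJA3 by 2.07 ± 0.39 (limma adjusted p = 0.000994) and the HSP70 to HSP90 adaptor STIP1 by 1.93 ± 0.38 (limma adjusted p = 0.00137). HSPA8, the constitutive cytosolic counterpart of HSPA5, stood at 2127, 1979 and 2374 FPKM in vitrification II and 596, 905 and 484 in vitrification I, and rose by 1.75 ± 0.33 (limma adjusted p = 0.0011). HSPA5 had a negative difference in the same libraries, of -1.88 ± 0.55. HSP90AB1, the cytosolic counterpart of HSP90B1, had a difference of 0.38 ± 0.31 (limma adjusted p = 0.343), against -2.92 ± 0.58 for HSP90B1.

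Likeness of profile was measured as the root mean square difference of centred log2(FPKM + 1) over the 11 libraries, among genes with a symbol. Nearest to HSPA5 were MANF at 0.398, HERPUD1 at 0.466, DNAJB11 at 0.473, CANX at 0.481 and the ER proline isomerase FKBP2 at 0.491. MANF had 579 and 453 FPKM in vitrification, 449, 528 and 437 in vitrification I, 111, 118 and 127 in vitrification II, and 70.3, 427 and 602 in fresh control, with fresh control 1 again the lowest. Nearest to CALR were SRPRB at 0.526, a subunit of the signal recognition particle receptor, RNF13 at 0.614, ZDHHC2 at 0.624, MAN2A1 at 0.631 and TM9SF3 at 0.641. The profiles of HSPA5 and CALR differed from each other by 0.931. HYOU1 and SDF2L1 were the members least like HSPA5, at 1.02 and 0.954. These values are a description over libraries that share groups, and nothing about shared control follows from them.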

How the data were processed

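RNA was measured by Smart-Seq2 in 12 libraries of 4 groups, of which 11 were analysed. Vitrification replicate 3 was not analysed here, which leaves 2 libraries in that group where 3 were planned. The authors deposited FPKM values for 31781 Ensembl identifiers. FastQC, TopHat2 2.0.13, Cufflinks 2.2.1 and DESeq2 are named in the submitters' processing notes without their roles, and the genome build is not given in the sources used here. Symbols came from an Ensembl name table that matched 15347 identifiers. FPKM was used as log2(FPKM + 1), and genes reaching 1 FPKM in 3 or more libraries were kept. The main model had 1 mean per group over all libraries in limma 3.58.1 (R 4.3.3) with a trended prior, two-sided, with Benjamini-Hochberg adjustment over 9411 genes and calls at an adjusted p under 0.05. The script was tested on simulated data. The members and gene lists were chosen with earlier results of these data known. Genes named are all members, up to 4 called genes with the largest difference per list and comparison, a fixed set of ER and cytosolic genes, and the 5 genes nearest to HSPA5 and to CALR. Of the fixed set, HSP90AA1 was not analysed here. Alternatives were other pseudocounts, filters, scalings, array weights, 2-group fits, a replicate block and leaving out each library.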

Additional observations from a re-analysis of the deposited data

How the results depend on the processing

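Among the recomputed values of single members, 771 moved by less than the spread between libraries and 29 by more. This tally does not measure stability, since some settings cannot change a difference of group means. Among these are the 2-group fits and leaving out a library of a group not compared. The spread also includes fresh control 1. With array weights the member median was 0.51 in vitrification I and -1.79 in vitrification II against fresh control. Leaving out 1 library gave medians of 0.19 to 1.31 for vitrification, 0.63 to 1.75 for vitrification I and -1.77 to -0.38 for vitrification II against fresh control, and -2.40 to -2.09 for vitrification II against vitrification I. Calls among the other ER genes in vitrification were 6 with array weights, 0 in the 2-group fit and 0 to 4 with a library left out. In vitrification I they were 10 with no filter, 38 with array weights and 12 to 24 with a library left out. In vitrification II against fresh control they were 3 with no filter, 11 after rescaling outside the mitochondrial genome, 9 after quantile normalization, 39 with array weights and 5 to 23 with a library left out. Calls among cytosolic and mitochondrial chaperones in vitrification I were 1 at pseudocount 5, with no filter, in the 2-group fit and with the replicate block, 4 after quantile normalization, 9 with array weights and 1 to 8 with a library left out. In vitrification II against fresh control they were 4 after quantile normalization, 22 with array weights, 13 in the 2-group fit and 4 to 11 with a library left out. Against vitrification I they were 8 after rescaling. Shares of all genes called are given for the main fit alone, so these counts have no such share beside them. Without a filter the named calls of DNAJC10, ERO1A, EIF2AK3, XBP1, PPP1R15A, PPP1R15B and DNAJA3 in vitrification I were lost (limma adjusted p = 0.0646 to 0.118). Those of PDIA3, HSPA13, CRELD2, EDEM3, DERL3, OS9, SELENOS, ATF6, PPP1R15A and SESN2 in vitrification II against fresh control (0.051 to 0.216) and of MANF, CRELD2, SESN2 and HSPB1 against vitrification I (0.0723 to 0.109) were lost as well. The EDEM3 call in vitrification was also lost at pseudocount 5 (0.0694) and after quantile normalization (0.0581), and all 3 ER calls there were lost in the 2-group fit (0.0684 to 0.0812). The cause of these changes was not tested. Same-numbered libraries showed no common deviation (median r = -0.007, from -0.158 to 0.143 over 15 pairs). Deviations were taken from the means of small groups and so partly offset each other, and this cannot exclude a pairing. With the replicate block 24 other ER genes were called in vitrification I and 20 in vitrification II against fresh control. With that block the calls of EDEM3 in vitrification (0.0559) and DNAJA3 in vitrification I (0.053) were lost. Depth is unknown.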
